A study of Mus musculus with 4 samples.

Results

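Expression of 10 transcription factor genes was followed in mouse B-cell leukaemia with and without Anp32b: the E protein genes Tcf3, Tcf4 and Tcf12, the ID protein genes Id1, Id2 and Id3, the TCF/LEF genes Lef1 and Tcf7, and Sox4 and Myb. They were taken by gene symbol from a list of names, with no threshold on expression, and all 10 were among the 16613 symbols of the deposited read count files. RNA-seq had been done on GFP+ cells from the bone marrow of recipient mice that were given B220+ marrow cells carrying introduced N-myc. The donor cells were Anp32b+/+ (wild type, 2 libraries) or Anp32b-/- (knockout, 2 libraries). All 4 libraries share the C57BL/6 strain, the bone marrow source, the introduced N-myc and the cell label N-myc-induced B-ALL, an acute leukaemia of B cell precursors. The mice's ages, the promoter driving N-myc and what marrow the recipients kept were not given in the sources used here. Whether the 2 libraries of a genotype came from separate mice is also not stated, so the p-values below reflect the spread between libraries alone, and that spread may be technical.

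E proteins are basic helix-loop-helix factors. They pair with each other through the helix-loop-helix and bind the E-box, whose letters are CANNTG. ID proteins have the helix-loop-helix but no basic region, so a dimer of an ID and an E protein does not bind DNA. In B cell progenitors E proteins, with Tcf3 (which encodes E2A) the best known, switch on Ebf1, the recombinase genes and the surrogate light chain genes. Lef1 and Tcf7 (which encodes TCF1) bind DNA through a high-mobility-group box and take either beta-catenin or TLE corepressors as partners, and Lef1 is known from the proliferation of pro-B cells. Sox4 has a box of the same kind and is required for pro-B cells, and Myb is needed for early lymphoid development.

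The libraries held 19581575 to 19758671 estimated reads. Levels are given as CPM, reads scaled to a common library size with TMM factors (trimmed mean of M values, which allow for differences in library composition). Anp32b stood at 774 and 853 CPM in wild type against 74.4 and 70.6 CPM in knockout, in the direction of the labels. B lineage genes were abundant in every library (18 marker genes with a summed 7548 to 8106 CPM, 8 of them called lower and 3 higher in knockout). Replicates were not copies of one another, with a chi-square over its degrees of freedom of 5.51 in the wild-type pair and 2.11 in the knockout pair. Markers of other cells moved with the genotype. All 15 neutrophil markers were called lower in knockout (summed 637 and 648 CPM in wild type against 127 and 128 CPM in knockout), as were all 4 Y-linked genes examined (156 and 173 against 42.5 and 41.7 CPM). Their part in the results below was not tested.

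Of the 10 factors, 5 fell in knockout, 1 rose and 4 were not called by edgeR's quasi-likelihood test at an adjusted p under 0.05. Tcf7, Lef1, Tcf4, Myb and Sox4 fell and Id2 rose, while Tcf3, Tcf12, Id3 and Id1 were not called. Over all 12123 tested genes 12.6% were called lower and 10.9% higher, 23.6% in either direction. The median log2 fold change of the 10 was -0.24, against 0.0021 over all tested genes. All 10 passed the filter on low counts. For 8 of the 10 the wild-type and knockout libraries did not overlap, 7 of them lower and 1 higher in knockout. Such separation was seen for 60.5% of all tested genes, lower in 30.5% and higher in 30%, so separation by itself is common here. Leaving out knockout replicate 1 or knockout replicate 2 reduced the number called lower from 5 to 3, the factors lost being Myb and Sox4.

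**Figure D1:**
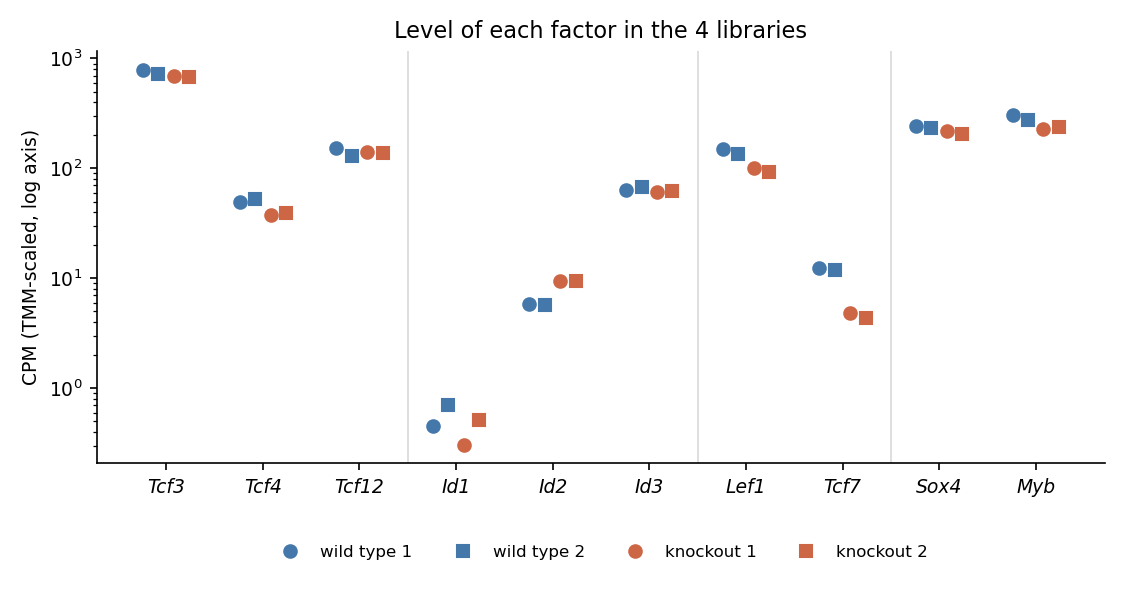
Level of each factor (x axis) in CPM on a log axis (y axis), 1 point per library, with wild type in blue and knockout in orange and with the replicate number shown by the shape. Tcf7, Lef1 and Tcf4 lie lower in both knockout libraries, Id2 lies higher in both, and the libraries of Tcf12 and Id1 overlap.

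**Figure D2:**
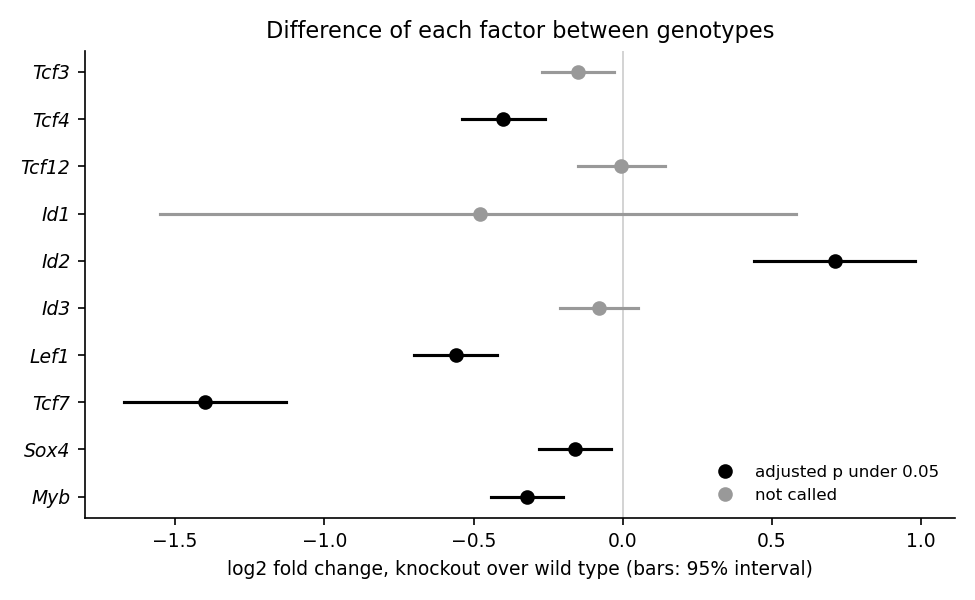
Log2 fold change of each factor, knockout over wild type (x axis), with its 95% interval from the edgeR fit of 2 against 2 libraries. Black marks factors called at an adjusted p under 0.05. Tcf7 is the farthest from 0 at -1.40, Id2 alone lies above 0 among the called factors, and the interval of Id1 is the widest.

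Tcf4 was the only one of the 3 E protein genes to be called. Tcf4, which is also known as the defining factor of plasmacytoid dendritic cells, was at 49.5 and 52.7 CPM in wild type against 38.1 and 39.3 CPM in knockout. Both knockout libraries lay below both wild-type libraries. The fall was 1.32-fold (log2 fold change -0.40, SE 0.07, edgeR adjusted p = 4.97e-04), and it was called in all 11 alternative fits. Of 8 tested markers of plasmacytoid dendritic cells (Dntt, also a B cell progenitor gene, among them), 4 were called lower and 1 higher. The 10 listed had summed levels of 108 and 111 CPM in wild type against 104 and 114 CPM in knockout. Ly6d (35.5 and 39.2 against 71.9 and 77.6 CPM) and Bst2, which other cells also express, gave much of that sum. The other 6 tested had log2 fold changes from -3.41 (Dntt) to -0.93 (Runx2), with Siglech, Pacsin1, Runx2 and Dntt called. Siglech, a defining gene of these cells, had 47 and 43 reads in wild type and 14 and 20 in knockout, against 742 to 1045 reads of Tcf4. The part of such cells in the fall of Tcf4 was not tested. In bulk RNA, fewer cells of a type and less RNA per cell cannot be told apart.

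Tcf3 was the most abundant of the 10 and its difference was small. It stood at 794 and 722 CPM in wild type against 696 and 675 CPM in knockout. The 2 genotypes did not overlap, but the gap between them was smaller than the gap between the wild-type libraries. By edgeR the log2 fold change of -0.15 had an SE of 0.06, a 95% interval of -0.27 to -0.03 and an adjusted p of 0.0774. Tcf3 was called lower after upper-quartile scaling (adjusted p = 0.0347), among genes above 10 CPM (0.0469), with the replicate number as a block (0.0367) and without wild-type replicate 2 (-0.22, adjusted p = 9.18e-04). Over the 11 alternatives its adjusted p ran from 9.18e-04 to 0.509.

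Tcf12, which encodes the E protein HEB, was at 152 and 130 CPM in wild type against 142 and 139 CPM in knockout. The knockout libraries lay between the wild-type libraries. Its log2 fold change was -0.0062 (95% interval -0.15 to 0.14, adjusted p = 0.961), and its sign changed without wild-type replicate 1 (0.11), as it did when knockout replicate 2 was left out (0.01). No difference was detectable beyond that interval.

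Among the ID genes, Id2 rose, and Id3 and Id1 were not called. Id2, which is required for natural killer and other innate lymphoid cells, was at 5.87 and 5.70 CPM in wild type against 9.55 and 9.40 CPM in knockout. The pairs were tight and well apart, with 117 and 113 reads against 186 and 182. The rise was 1.64-fold (log2 fold change 0.71, SE 0.13, edgeR adjusted p = 9.02e-04), and it was called in all 10 alternative fits that gave it a value. Of the tested genes, 345 (2.85%) had as high a log2 fold change or higher. Markers of natural killer and innate lymphoid cells did not rise with it. Only 5 of the 12 listed passed the filter on low counts, 0 of them called higher and 2 lower. The 12 markers listed had a summed level of 7.68 and 8.93 CPM in wild type against 2.46 and 2.63 CPM in knockout. Of 11 tested monocyte markers, 0 were called higher and 4 lower. The 12 listed had summed levels of 116 and 110 CPM in wild type against 52.7 and 51.9 CPM in knockout. The part of any of these cell types in the level of Id2 was not tested.

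Id3, an early target of pre-B and B cell receptor signals, held most of the ID transcripts. It was at 63.4 and 67.1 CPM in wild type against 61.1 and 62.5 CPM in knockout. The genotypes were only just apart, and edgeR gave -0.08 on the log2 scale (SE 0.06, 95% interval -0.21 to 0.05, adjusted p = 0.394). Id1, known mainly from stem, endothelial and myeloid cells, had only 9 and 14 reads in wild type and 6 and 10 in knockout. At this depth a difference could not be resolved (log2 fold change -0.48, SE 0.49, 95% interval -1.55 to 0.58, adjusted p = 0.536).

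Both TCF/LEF genes fell. Tcf7, best known from T cells and innate lymphoid cells, was at 12.3 and 12.0 CPM in wild type against 4.83 and 4.39 CPM in knockout. These were 246 and 238 reads against 94 and 85, with the genotypes far apart and each pair close. The fall was 2.64-fold (log2 fold change -1.40, SE 0.13, edgeR adjusted p = 1.68e-06), and it was the only called change of at least 2-fold among the 10 factors. Of all tested genes, 3.9% were called lower and 1.3% higher by at least 2-fold, and 326 (2.69%) had as low a log2 fold change as Tcf7 or lower.

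Lef1 was at 150 and 136 CPM in wild type against 101 and 92.2 CPM in knockout. Both knockout libraries were clearly below both wild-type libraries, 1.48-fold on the fit (log2 fold change -0.56, SE 0.06, edgeR adjusted p = 1.55e-05). Tcf7 and Lef1 were each called in all 11 alternative fits, with log2 fold changes of -1.47 to -1.33 and -0.63 to -0.49. The related genes Tcf7l1 and Tcf7l2, which encode TCF3 and TCF4 of the TCF/LEF family and must not be confused with the E protein genes of those symbols, fell as well. Tcf7l1 had 70 and 61 reads in wild type and 21 and 19 in knockout (log2 fold change -1.67, SE 0.26, edgeR adjusted p = 2.60e-04). Tcf7l2 had 175 and 150 reads against 91 and 56 (-1.11, SE 0.19, adjusted p = 6.61e-04), a call lost with no filter on low counts (adjusted p = 0.0686).

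Markers of T cells went in both directions beside these falls. The Cd3 genes had few reads: Cd3e had 2 and 4 in wild type and none in knockout, Cd3g had 1 and 7 against 0 and 3, and Cd3d had 5 and 4 against 3 and 3. Cd4 fell with Tcf7, with 75 and 57 reads in wild type against 22 and 20 in knockout, a log2 fold change of -1.61 (adjusted p = 4.65e-04 by edgeR). Lck was called lower too (-0.39, adjusted p = 0.0137), while Cd6, Lat, Zap70 and Thy1 were called higher. Cd6 had 1 and 4 reads in wild type against 189 and 217 in knockout (6.31, adjusted p = 4.83e-09 by edgeR). Lat had 697 and 761 reads against 1478 and 1364 (1.00, adjusted p = 1.11e-07), and Zap70 (0.53) and Thy1 (0.33) rose less. Over the T cell list of 19 genes, 11 were tested, 4 of them called higher and 2 lower, and its summed level was 182 and 191 CPM in wild type against 247 and 246 CPM in knockout. Cd2, which B cells of the mouse also express, gave a large part of that sum, with 1640 to 1854 reads in each library. The part of T cells in the falls of Tcf7 and Lef1 was not tested.

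Sox4 and Myb fell by smaller amounts. Sox4 was at 244 and 231 CPM in wild type against 220 and 205 CPM in knockout. The pairs did not overlap, but the gap between them was smaller than the gap within either (log2 fold change -0.16, SE 0.06, edgeR adjusted p = 0.0472). This call was lost in 5 of 11 alternatives: with DESeq2 (adjusted p = 0.111), with no filter (0.172) and on leaving out wild-type replicate 1 (0.0626), knockout replicate 1 (0.15) or knockout replicate 2 (0.502). Myb was at 303 and 278 CPM in wild type against 229 and 236 CPM in knockout, with the genotypes apart. In knockout it stood at 0.801 of its wild-type level (log2 fold change -0.32, SE 0.06, edgeR adjusted p = 7.76e-04). It missed the threshold on leaving out knockout replicate 1 (-0.30, adjusted p = 0.0519) or knockout replicate 2 (-0.34, adjusted p = 0.07). Markers of stem and progenitor cells, which also express Myb, were sparse: Kit had 18 and 29 reads in wild type and 23 and 7 in knockout, and 0 of 6 tested genes of that list were called.

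The replicates of a genotype did not differ in 1 direction for all factors. In wild type 7 of the 10 were higher in replicate 1 than in replicate 2, the exceptions being Tcf4, Id3 and Id1. In knockout 6 of the 10 were higher in replicate 1.

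Lef1, Sox4 and Myb fell together, and their promoters are shown to let a reader look for the elements these families bind. Lef1 lies on chromosome 3 at 131110297 to 131224357, Sox4 on chromosome 13 at 28948919 to 28953699 and Myb on chromosome 10 at 21124930 to 21160984 (GRCm38.p6, RefSeq). The sequences are from RefSeq on the same build, in lower case with every E-box (CANNTG, a pattern that reads the same on both strands) in capitals. The windows are chr3:131110047-131110296 on the plus strand for Lef1, chr13:28953714-28953949 on the minus strand for Sox4 and chr10:21160985-21161234 on the minus strand for Myb.
Lef1: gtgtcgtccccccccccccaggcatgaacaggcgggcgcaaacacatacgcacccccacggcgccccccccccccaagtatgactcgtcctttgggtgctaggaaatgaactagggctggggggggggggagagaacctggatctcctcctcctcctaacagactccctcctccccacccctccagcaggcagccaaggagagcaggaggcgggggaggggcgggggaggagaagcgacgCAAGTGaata
Sox4: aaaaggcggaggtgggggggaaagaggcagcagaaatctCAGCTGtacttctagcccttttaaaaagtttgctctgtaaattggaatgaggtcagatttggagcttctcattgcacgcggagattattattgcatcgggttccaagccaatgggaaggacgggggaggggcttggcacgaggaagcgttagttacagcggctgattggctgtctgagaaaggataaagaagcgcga
Myb: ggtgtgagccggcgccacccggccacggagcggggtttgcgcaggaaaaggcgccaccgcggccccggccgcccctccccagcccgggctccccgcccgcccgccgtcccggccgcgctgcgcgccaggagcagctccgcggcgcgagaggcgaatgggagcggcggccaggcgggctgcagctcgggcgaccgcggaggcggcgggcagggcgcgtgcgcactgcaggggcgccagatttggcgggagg

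The Lef1 window holds a CAAGTG that begins 10 bases before the start, the Sox4 window a CAGCTG that begins 211 bases before it, and the Myb window none. Sequence from the chromosome of Tcf4 was left out for the factors, so Tcf4 was not searched. With that exclusion the RefSeq promoter table held 8 of the 10 factors. In Tcf3, Tcf7 and Tcf12 the most upstream start it lists lies inside the RefSeq gene, so these were left out. For the other 5 (Id2, Id3, Lef1, Sox4 and Myb) the 250 bases before the RefSeq gene were searched on both strands. The same was done for 19826 promoters that end at the RefSeq gene, without leaving out a chromosome. An E-box was in 3 of the 5 (Id2, Lef1 and Sox4) and in 68.3% of all. The form CAGCTG was in 2 of the 5 (Id2 and Sox4) against 12.9% of all, and the form CAGGTG in 0 of the 5 against 17.2%. CTTTGA, the core of the TCF/LEF site, was in 0 of the 5 against 14.9%, and AACNG, the core of the MYB site, in 3 of the 5 (Id2, Id3 and Lef1) against 75%. GAGGAA, found in sites of PU.1 and other ETS factors, was in 2 of the 5 (Id3 and Sox4) against 23.1%. In GENCODE M21, exons of the same gene cover 161 bases of the Id2 window, all 250 of the Id3 window and 14 of the Sox4 window, so these stretches are not shown. An exon of the antisense gene Gm43352 covers the Lef1 window. These matches describe letters in a window, not binding.

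Levels can be compared between factors only per transcript length, here CPM per kilobase of the median protein-coding transcript (GENCODE M21). In wild type Tcf3 led with 267.5 ± 17.8 (SD, n = 2), at rank 401 of 11649 tested genes with a length. Myb followed with 85.9 ± 5.36, then Tcf12 with 62.6 ± 6.82, Id3 with 51.0 ± 2.08, Sox4 with 49.6 ± 1.93, Lef1 with 42.3 ± 2.90 and Tcf4 with 27.8 ± 1.21. Tcf7 (5.78 ± 0.117), Id2 (4.56 ± 0.0976) and Id1 (0.553 ± 0.172) were the lowest. Id3 and Sox4 overlapped in wild type. The others did not overlap with their neighbours in this order. In knockout Id2 (7.46 ± 0.0836) stood above Tcf7 (2.19 ± 0.146), the reverse of wild type, and the rest kept their order. With the longest transcript in place of the median, Id2 and Tcf7 also changed places (2.94 and 4.93 in wild type, 4.81 and 1.86 in knockout). Tcf12 and Tcf4 then moved down to 22.4 and 5.96 in wild type, since their longest transcripts, of 6299 and 8577 bases, far exceed the medians of 2257 and 1842.

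Within the E proteins the share of Tcf3 hardly moved. Tcf3 made up 74.8% and 74.7% of the summed E protein level per kilobase in wild type and 74.6% and 74.2% in knockout. Tcf12 made up 17.5% ± 0.763 in wild type and 19.2% in both knockout libraries (SD, n = 2), and Tcf4 7.19% and 8.38% against 6.28% and 6.65%. Within the ID proteins, Id2 made up 8.47% and 7.78% in wild type and 13.5% and 13.0% in knockout, with Id3 at 90.7% and 91.1% against 86.0% and 86.1%. Within the TCF/LEF pair, Tcf7 made up 11.7% and 12.4% in wild type and 7.09% in both knockout libraries. The summed TCF/LEF level was 50.2 and 46.0 CPM per kilobase in wild type and 32.3 and 29.4 in knockout, with no overlap. The summed ID level was nearly the same in all 4 libraries, at 54.6 and 57.7 in wild type and 55.6 and 56.8 in knockout. The ratio of the summed ID level to the summed E protein level was 0.146 and 0.169 in wild type and 0.169 and 0.177 in knockout, so the genotypes overlapped. These shares and ratios describe 2 libraries a genotype, and no test of them was run.

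**Figure D3:**
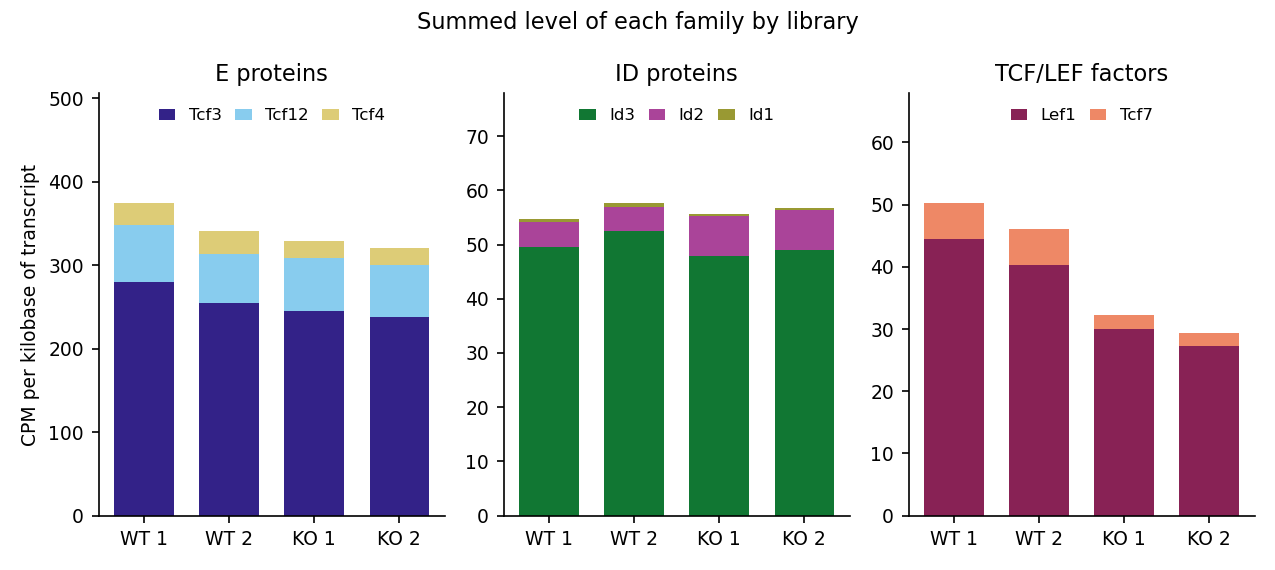
Summed level of the E protein, ID protein and TCF/LEF genes (y axis, CPM per kilobase of median transcript, starting at 0 and scaled for each panel) in the wild-type (WT) and knockout (KO) libraries. The TCF/LEF bars are lower in both knockout libraries (32.3 and 29.4 against 50.2 and 46.0), and the Id2 segment is taller there while the whole ID bar stays between 54.6 and 57.7.

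Tal1, which encodes a partner of E proteins, rose among the genes for E protein partners and corepressors. Of 13 tested genes of this list, 3 were called higher and 1 lower (10.9% and 12.6% over all tested genes), with a median log2 fold change of -0.03. Tal1 had 32 and 23 reads in wild type and 114 and 146 in knockout (log2 fold change 2.27, SE 0.22, edgeR adjusted p = 3.98e-06). It is also an erythroid gene. Of 12 erythroid markers, 1 was called higher and 2 lower, and the erythroid factor gene Klf1 had 16 and 7 reads against 20 and 10. Bhlhe41, which encodes a repressor that binds E-boxes, rose from 14.6 ± 0.865 to 22.3 ± 0.129 CPM (0.61, SE 0.09, SD with n = 2). Ldb1, which encodes the adaptor that joins LMO proteins, was called higher at the margin (0.16, adjusted p = 0.0498), and Kat2b, an acetyltransferase gene, was called lower (-0.48, SE 0.09). Without wild-type replicate 1 the list had 5 genes called higher. Without wild-type replicate 2 it had 2 called lower, and without knockout replicate 2 it had 0 called lower. The calls of both Ldb1 (adjusted p = 0.436) and Kat2b (0.0872) were lost without knockout replicate 2.

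Among genes known to be switched on or restrained by E proteins in B cell progenitors, more fell than rose. Of 32 tested, 14 were called lower and 5 higher, with a median log2 fold change of -0.13. Over all tested genes 12.6% were called lower and 10.9% higher. Lef1 is also a member of this list. Dntt, which encodes terminal transferase, had 670 and 651 reads in wild type and 66 and 55 in knockout (log2 fold change -3.41, SE 0.11, edgeR adjusted p = 5.85e-11). Rag1, which encodes a recombinase subunit, had 748 and 695 reads against 217 and 201 (-1.75, SE 0.09). The cyclin genes moved apart: Ccnd3 was at 655 and 638 CPM in wild type against 283 and 282 CPM in knockout (-1.19, SE 0.05), while Ccnd2 was at 227 and 226 against 450 and 433 CPM (0.96, SE 0.05). Cd22, an inhibitory receptor gene, rose from 53.1 and 52.0 to 107 and 104 CPM, and Gfi1, a repressor gene, rose by 0.41 (SE 0.08). Ebf1, Pax5 and Notch1 were named after their values were seen. Ebf1 was lower in knockout (-0.52, adjusted p = 7.86e-06), as was Notch1 (-0.55, adjusted p = 3.41e-04, or 0.0789 without knockout replicate 2), and Pax5 stood at 0.0025 (adjusted p = 0.981). Without knockout replicate 2 the counts were 9 lower and 3 higher, and without knockout replicate 1 there were 3 higher. The 15 neutrophil markers and 4 Y-linked genes fell in the same libraries.

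BMP and TGF-beta signals reach Id genes through SMAD proteins. Of 26 tested genes of these receptors, SMADs and regulators, 3 were called higher and 4 lower (10.9% and 12.6% over all tested genes), with a median log2 fold change of -0.06. Eng, which encodes the co-receptor endoglin, was at 67.4 and 63.2 CPM in wild type against 16.6 and 16.4 CPM in knockout (log2 fold change -1.98, SE 0.07, edgeR adjusted p = 1.95e-10). Genes of type I receptors, Acvr1 (-0.67, SE 0.13) and Acvrl1 (32 and 39 reads against 11 and 11), fell too. Ski, which encodes a SMAD corepressor, rose from 13.5 ± 0.277 to 20.3 ± 0.243 CPM (0.59, SE 0.09, SD with n = 2). Smurf2, a ubiquitin ligase gene, was called higher (0.26, SE 0.07), as was the receptor gene Bmpr1a with 6 and 9 reads against 16 and 20. None of the 7 tested SMAD genes was called by edgeR, of which Smad9 (5 and 11 reads against 23 and 14, named after its value was seen) was the nearest with an unadjusted p of 0.0213, and its adjusted p was 0.0431 on leaving out wild-type replicate 2. Without knockout replicate 2 only 1 gene of the list was called lower and 1 higher, and without knockout replicate 1 only 1 higher. Ski and Eng were called in every alternative fit, whereas Bmpr1a and Smurf2 were each lost in several.

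In the Wnt and beta-catenin pathway 6 of 28 tested genes were called higher and 6 lower, with a median log2 fold change of -0.09, where 10.9% and 12.6% of all tested genes were called. Ctnnb1, the beta-catenin gene and partner of Lef1 and Tcf7, was named after its value was seen: it had 6104 and 6215 reads in wild type and 6066 and 6009 in knockout. The kinase gene Csnk1e (0.41, SE 0.06), the co-receptor gene Lrp5 (0.52, SE 0.09) and Dvl1 (0.35, SE 0.07), which encodes a Dishevelled protein, rose. Besides Tcf7l1 and Tcf7l2, Wls, which encodes the carrier of secreted Wnt proteins, fell from 29.7 ± 1.69 to 21.5 ± 1.26 CPM (-0.46, SE 0.08, SD with n = 2). Without knockout replicate 2 the counts were 1 higher and 2 lower, and without wild-type replicate 2 there were 3 higher. Lrp5, Dvl1 and Wls were not called without knockout replicate 2 (adjusted p = 0.0824, 0.105 and 0.0657).

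The list of TLE and CTBP corepressors, the partners of TCF/LEF factors without beta-catenin, also held Hdac1, Hdac2 and Hic1. Of its 10 tested genes 2 were called higher and 0 lower (median 0.04), against 10.9% and 12.6% over all tested genes. By an unadjusted p under 0.05 no gene of the list was lower either. Ctbp2 had 39 and 31 reads in wild type and 170 and 167 in knockout (log2 fold change 2.30, SE 0.18, edgeR adjusted p = 3.41e-07). Tle5, which encodes a short TLE protein without the corepressor's repeat domain, rose from 117 ± 4.36 to 149 ± 1.17 CPM (0.35, SE 0.05, SD with n = 2). On leaving out knockout replicate 2, Tle5 was no longer called (adjusted p = 0.0516) and 1 gene of the list was.

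Of 12 tested genes on a list meant to hold genes that respond to Wnt signals in many tissues, 6 were called lower and 2 higher. Their median log2 fold change was -0.25. The shares over all tested genes were 12.6% and 10.9%. Myc had 1728 and 1572 reads in wild type and 685 and 651 in knockout (-1.27, SE 0.07, adjusted p = 8.90e-09 by edgeR). Nkd2, which encodes an inhibitor of Dishevelled, had 391 and 355 reads against 179 and 167 (-1.07, SE 0.10), and Tnfrsf19, a receptor gene, had 487 and 483 against 257 and 316 (-0.73, SE 0.10). The other 3 called lower were Axin2, Lgr5 and Kremen1. Axin2, a widely used readout of beta-catenin with TCF/LEF, had 66 and 74 reads in wild type and 42 in both knockout libraries (-0.70, edgeR adjusted p = 0.0278); it, Lgr5 and Kremen1 were named after their values were seen. All 3 lost their call with DESeq2, with no filter and on leaving out either knockout library. The adjusted p of Axin2 was then 0.229, 0.0667, 0.138 and 0.163, and it was 0.106 without wild-type replicate 2. Ccnd1, the cyclin D1 gene, went the other way with 286 and 274 reads against 631 and 645 (1.22, SE 0.08). Zbtb32, which also rose (2.72, SE 0.27), encodes a zinc finger repressor of lymphocytes. It is not an established Wnt target, yet it is included in the counts and median of this list. The 4 genes not called were Znrf3 (log2 fold change 0.20), Nkd1 (-0.19), Cd44 (-0.08) and Nfatc1 (-0.04), also named after their values were seen. Without knockout replicate 1 or knockout replicate 2 the count called lower was 3. Neutrophil markers and Y-linked genes fell in the same libraries.

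Of 12 tested genes of the SOX family and other high-mobility-group genes, 1 was called higher and 1 lower (median -0.09), against 10.9% higher and 12.6% lower over all tested genes. Sox12, which belongs to the same SOX subgroup as Sox4, fell from 68.2 ± 5.62 to 53.3 ± 3.21 CPM (-0.36, SE 0.07, SD with n = 2), and Sox13 rose (0.65, SE 0.09). The call of Sox12 was lost without knockout replicate 1 or 2 (adjusted p = 0.0739 and 0.0541). Without wild-type replicate 1 the list had 2 genes called in each direction. Of 27 tested genes of the MYB family, its partners and its targets, 5 were called higher and 2 lower, with a median log2 fold change of -0.0024. Over all tested genes 23.6% were called in either direction. Myc and Mpo fell, and Gfi1, the amino acid transporter gene Slc1a5 (0.26, SE 0.05) and the kinase gene Cdk6 (0.24, SE 0.05) rose. Mpo, which encodes myeloperoxidase, is also one of the 15 neutrophil markers that fell. The number called higher was 8 without wild-type replicate 1 and 1 without either knockout library, and the number called lower was 4 without wild-type replicate 2. With the replicate number as a block, 8 were called higher.

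**Figure D4:**
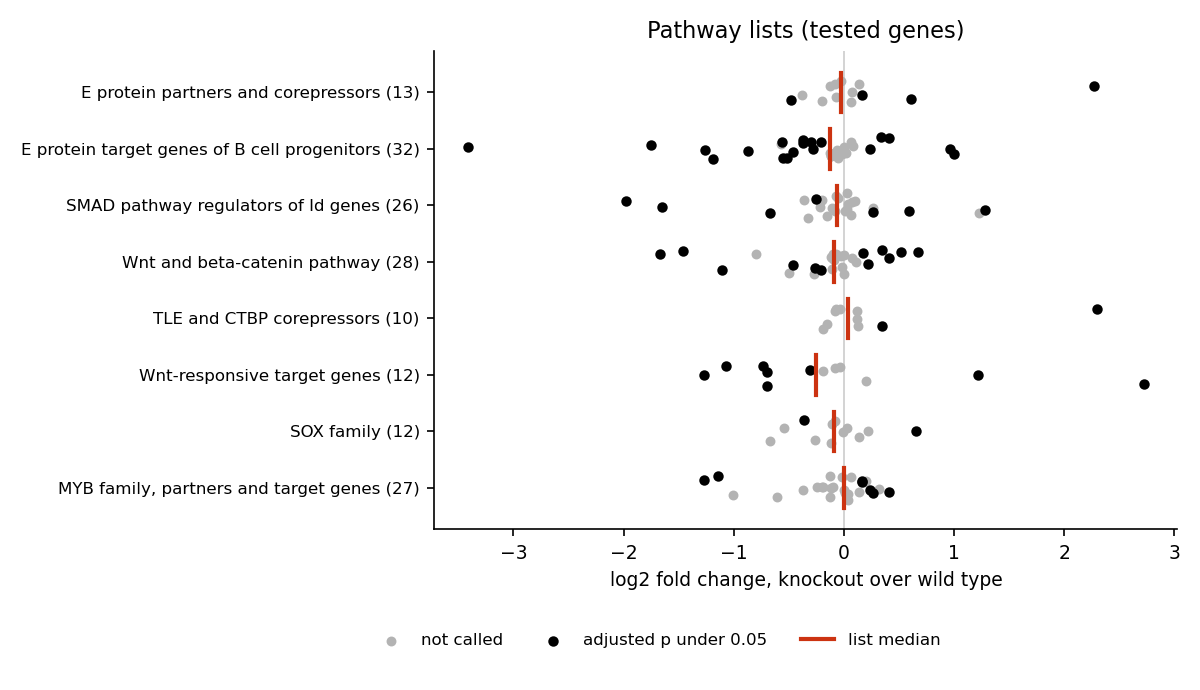
Log2 fold change, knockout over wild type (x axis), of each tested gene in the 8 pathway lists (y axis, number tested in brackets), with called genes in black and the list median as a red bar. Medians lie between -0.25 (Wnt-responsive target genes) and 0.04 (TLE and CTBP corepressors), while single genes such as Dntt (-3.41) and Zbtb32 (2.72) lie far out.

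Tcf7 was the only factor called with a change of at least 2-fold, and genes with the most similar profile were sought for it alone. Among the 9207 tested genes averaging 5 CPM or more, the smallest distances over the 4 libraries (Euclidean, on log2 CPM centred on each gene's mean) were those of Gsn, Sned1 and P2rx3 (0.06, 0.06 and 0.10). Gsn, the gelsolin gene, was at 31.8 and 31.2 CPM in wild type against 12.3 and 11.8 CPM in knockout. With 4 libraries this measure reflects mainly the size of the difference between genotypes.

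The strand setting of the counting was not given in the sources used here. Exons of Lef1, Sox4 and Myb overlap those of antisense or non-coding genes on the opposite strand (Gm43352, Gm26735 and Gm26577, by 1208, 2616 and 268 bases in GENCODE M21), whose reads cannot then be told apart from those of the factor. Tcf4 was not examined for such overlaps, since its chromosome was left out. For 4 of the 10 factors (Tcf4, Tcf12, Tcf7 and Sox4) the deposited counts held decimals, whose origin was not tested.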

How the data were processed

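RNA-seq libraries of GFP+ bone marrow cells, 2 per genotype, were grouped by the labelled genotype. The deposited files hold 1 expected count (estimated reads) per gene symbol and library, unscaled, per the file headers and the values. Per the submitters' processing notes, the build was GRCm38 and the tools were HISAT2 2.0.4 and DESeq2 1.4.5. The program used for counting, its annotation and strand setting were not given in the sources used here. Counts were rounded. The main test was edgeR 4.0.16 (R 4.3.3; quasi-likelihood, TMM, filterByExpr with a minimum count of 10, no covariate, Benjamini-Hochberg adjustment over 12123 genes; 4490 fell below the filter). SEs are the log2 fold change divided by the root of its F statistic.

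Alternatives were RLE and upper-quartile normalization, DESeq2 1.42.0, limma-voom (limma 3.58.1), no filter, 10 CPM in 2 libraries, the replicate number as a block, each library left out and a fold of at least 2. Lists carry no set test, and a list's count is read against all tested genes. The members, the lists and the rule for named genes (the 10 members; in each pathway list up to 3 called genes with the smallest p in each direction; the 3 genes nearest in profile to a member called with a change of 2-fold or more) were chosen with earlier results of these data known; the Y-linked genes were added later. Transcript lengths came from GENCODE M21, the longest transcript being an alternative, and promoter sequences from RefSeq (GRCm38.p6), kept where the window ends at the RefSeq gene. The procedure was tested on simulated counts.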

Additional observations from a re-analysis of the deposited data

How the results depend on the processing

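Of the 10 factors, 4 (Tcf4, Id2, Lef1 and Tcf7) were called in every alternative fit that gave a value, and 3 (Tcf12, Id1 and Id3) in none. At a fold of at least 2 only Tcf7 stayed called. The filter of 10 CPM gave no value for Id1 and Id2, so 0 factors were then called higher. Without single libraries the log2 fold change ran from -0.22 to -0.08 for Tcf3, from -0.12 to 0.11 for Tcf12, from -0.21 to -0.11 for Sox4 and from -0.39 to -0.25 for Myb. Tcf3 was called with upper-quartile normalization (-0.18), the 10 CPM filter (-0.16) and the replicate block (-0.14). Sox4 was not called with DESeq2 (-0.16) or no filter (-0.16). The cause of these changes was not tested. Libraries with the same number in the titles shared little deviation (correlation 0.0348 over 12123 genes). This value alone cannot show whether they were paired, and the labels do not say. With the replicate block 6 factors were called lower, and over all genes 1644 were called higher and 1779 lower. By over 1.5 times it moved only SOX genes called higher (2) and MYB-related genes called higher (8).

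Counts of calls moved more. Over all genes, 1323 were called higher and 1533 lower, against 729 and 847 with DESeq2, 547 and 744 with no filter, 157 and 473 at a fold of at least 2, and 372 to 1676 and 579 to 1712 without single libraries. Without single libraries, 3 to 6 factors were called lower. The lists then ranged as follows, higher and lower in turn: E protein partners 2 to 5 and 0 to 2, E protein targets 3 to 5 and 9 to 16, SMAD regulators 1 to 3 and 1 to 5, Wnt pathway 1 to 7 and 2 to 7. TLE and CTBP genes called higher ranged from 1 to 3, Wnt-responsive genes called lower from 3 to 6, SOX genes from 1 to 2 higher and 0 to 2 lower, and MYB-related genes from 1 to 8 higher and 2 to 4 lower.

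At a fold of at least 2, 0 factors were called higher and 1 lower. The lists then had 1 higher and 0 lower (E protein partners), 1 and 4 (E protein targets), 1 and 2 (SMAD regulators), 0 and 3 (Wnt pathway), 1 higher (TLE and CTBP), 2 lower (Wnt-responsive), 0 and 0 (SOX) and 0 higher (MYB-related). With no filter there were 0 lower (E protein partners), 3 higher (E protein targets), 1 higher (SMAD), 1 higher and 2 lower (Wnt pathway), 3 lower (Wnt-responsive), 0 lower (SOX) and 2 higher (MYB-related). With the 10 CPM filter, which tests fewer genes, there were 1 higher (E protein partners), 2 lower (SMAD), 3 lower (Wnt pathway), 1 higher (TLE and CTBP), 1 higher (Wnt-responsive) and 3 higher (MYB-related). With DESeq2 there were 1 higher (SMAD), 3 higher and 3 lower (Wnt pathway) and 3 lower (Wnt-responsive). Limma-voom called 2 SOX genes higher, and upper-quartile normalization 3 MYB-related genes higher. Pax5 and Ctnnb1, uncalled and near 0, changed sign with upper-quartile normalization (-0.03 and -0.03) and the 10 CPM filter (-0.02 and -0.01), and without single libraries they ran from -0.08 to 0.09 and from -0.01 to 0.02. Of 34 pathway genes named by rule, 20 stayed called in all alternative fits that gave a value and 0 reversed.

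With the longest transcript, shares of the summed level in wild type and knockout were 90.1% and 89.6% for Tcf3, 2.10% and 1.74% for Tcf4, 7.85% and 8.62% for Tcf12, 5.40% and 8.99% for Id2, 93.7% and 90.3% for Id3, 89.3% and 93.7% for Lef1 and 10.7% and 6.29% for Tcf7. The ratio of ID to E protein level was 0.192 and 0.207. Depth limits chiefly Id1, with 6 to 14 reads a library.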
